A study of Rattus norvegicus with 6 samples.

Results

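Ptk2b, Ppp2r2b, Ndfip1 and Dlg4 are transcripts of a kinase, a phosphatase subunit, a ubiquitin-ligase adaptor and a synaptic scaffold. Their probes are 4 of the 62 linear-transcript probes on a rat circRNA array, which holds 14227 probes besides its control spots. Each has 1 named probe, printed as 10 spots, and was found by its probe name or, for Dlg4, by its RefSeq transcript. The 4 were chosen by their detection and their difference between AD and sham on these same arrays. For this reason the levels and differences are given as a description, with no p-value for any member.

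The arrays compared 3 hippocampal samples of the AD group with 3 of the sham group, all from adult male Sprague Dawley rats. In the AD group, Aβ1–42 oligomers had been injected through a cannula into both lateral ventricles. The sham group received vehicle, also through a cannula into both lateral ventricles. The model rests on an injection and carries no transgene, and the sources used here do not say whether each sample came from a separate rat. Total RNA of both groups had been digested with RNase R, an exonuclease that removes linear RNA, and labelled with Cy3 by random priming. The signal of a linear transcript is therefore that of the RNA left after digestion. More transcript in the tissue and less complete digestion cannot be told apart here, nor can fewer cells of a type and less RNA per cell. A probe within an exon may also bind a circular RNA that holds this exon, and the probe sequences were not analysed here.

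Ptk2b encodes Pyk2, a calcium-sensitive tyrosine kinase related to focal adhesion kinase, which is abundant in hippocampal neurons and whose human gene lies at a locus linked to the risk of late-onset Alzheimer's disease. Ppp2r2b encodes a brain-enriched B-type regulatory subunit of protein phosphatase PP2A, a major enzyme that removes phosphate from tau. Ndfip1 encodes a membrane protein that recruits and activates ubiquitin ligases of the Nedd4 family. Dlg4 encodes PSD-95, the scaffold that holds glutamate receptors and signalling proteins at the excitatory synapse.

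Levels are log2 values of the processed signal, which the authors' scanner software had corrected for background. The mean of a probe's spots was taken, and 0 is the 75th percentile of that array. Of the 240 spots of the 4 probes on 6 arrays, 10 were marked as outliers by the software and left out, and 0 were saturated. At these spots the median local background was 16 to 18.25 on 5 arrays and 27 to 29.75 on sham 3, whose file header has another scan time and which was taken here as another slide. The position codes in the file headers begin with 1 for all AD arrays and with 2 for all sham arrays. Read as positions on the slide, they cannot be told apart from the group. Over all probes tested, sham 1 was closer to the AD arrays (correlations of 0.915 to 0.942) than sham 2 was (0.817 to 0.869), and its correlation was 0.881 with sham 2 and 0.931 with sham 3. Results that rest on sham 1 are given with and without it.

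Of the 4 transcripts, Ptk2b differed the most between AD and sham. Its level was 1.62, 1.20 and 0.97 on AD 1, AD 2 and AD 3. On sham 1, sham 2 and sham 3 it was 0.18, -2.09 and -1.38. The groups did not overlap, and all 3 AD arrays lay above sham 1, the highest of the sham arrays, by at least 0.79. The AD mean was 1.26 ± 0.33 (SD, n = 3) and the sham mean -1.10 ± 1.16 (SD, n = 3), a log2 difference of 2.36 (standard error 0.55 from limma) or 5.13-fold higher in AD. The standard error spans 3.51-fold to 7.49-fold. Most of the spread came from the sham group, since sham 1 lay far above sham 2 and sham 3. Without sham 1 the log2 difference was 3.00 (standard error 0.31), and without sham 2 it was 1.86. With normexp, a background correction applied here to the median signal and its local background with 50 added, it was 1.51 (standard error 0.31) or 2.85-fold.

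The AD arrays also lay above the sham arrays in the unscaled signal of the Ptk2b probe. The mean processed signal was 248.7, 284.6 and 179.9 in AD and 92.1, 34.8 and 42.0 in sham, so every AD array was brighter than every sham array. Every unflagged spot was well above background on every array. The highest sham spot, at 0.36, was below the lowest AD spot, at 0.83. The spots of 1 array differed little, with an SD of 0.09 to 0.21 on the log2 scale, whereas the SD between the sham arrays was 10.5 times the median spot SD.

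**Figure D1:**
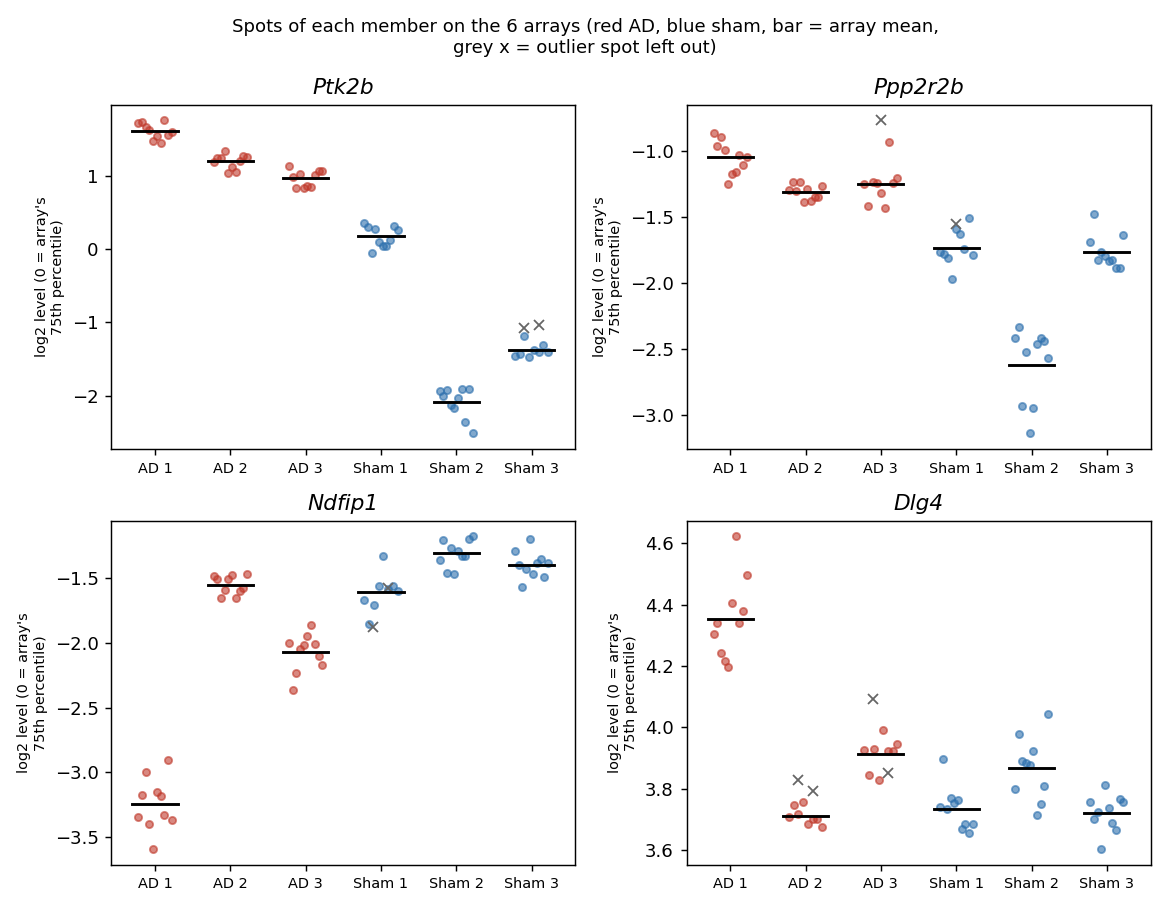
Log2 level of every spot (y axis, relative to the 75th percentile of its array) for the 4 probes on the 6 arrays (x axis), AD red and sham blue, the array mean as a black bar and outlier spots as grey crosses. The mean of Ptk2b on sham 1, at 0.18, lies below AD 3 and above sham 3, and Ndfip1 is lowest on AD 1 at -3.24.

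Ppp2r2b also had a higher mean in AD, by less. Its level was -1.05, -1.31 and -1.25 on AD 1, AD 2 and AD 3. On sham 1, sham 2 and sham 3 it was -1.73, -2.62 and -1.76. The AD arrays were close together and did not overlap with the sham arrays, of which sham 2 was the lowest. The AD mean was -1.20 ± 0.14 (SD, n = 3) and the sham mean -2.04 ± 0.50 (SD, n = 3), a log2 difference of 0.84 (standard error 0.29 from limma) or 1.79-fold higher in AD. In contrast to Ptk2b, sham 1 and sham 3 had nearly the same level. Without sham 2 the difference was 0.55 (standard error 0.25), and without sham 1 it was 0.99.

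The Ppp2r2b probe was dim but well above background on all 6 arrays. Its mean processed signal was 39.4, 50.1 and 38.7 in AD and 24.5, 24.3 and 32.3 in sham. The lowest signal that counted as well above background was 8.51 to 11.8 among the arrays. The spots were least alike on sham 2, where their SD was 0.28 and single spots ranged from -3.14 to -2.33. Single spots of the groups came close, with the highest sham spot at -1.48 and the lowest AD spot at -1.43. With normexp the difference was 0.34 and the groups overlapped. Adding 50 to signals of this size reduces their folds by construction.

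Ndfip1 was the only transcript of the 4 with a lower mean in AD, and its groups overlapped. Its level was -3.24 on AD 1, -1.55 on AD 2 and -2.07 on AD 3. On sham 1, sham 2 and sham 3 it was -1.61, -1.31 and -1.39. AD 2 lay among the sham arrays, just above sham 1. The AD mean was -2.29 ± 0.87 (SD, n = 3) and the sham mean -1.44 ± 0.15 (SD, n = 3), a log2 difference of -0.85 (standard error 0.42 from limma). Here the AD arrays were the uneven ones and the sham arrays were alike. The value depended on AD 1. Without AD 1 the difference was -0.38 (standard error 0.26), and without AD 2 it was -1.22 (standard error 0.38).

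On AD 1 the Ndfip1 probe was not well above background, with 2 of its 10 spots passing. Its mean processed signal there was 8.62, against 42.3 on AD 2 and 21.9 on AD 3, and 26.7, 59.6 and 41.7 on the sham arrays. The 75th percentile of all signals was lowest on AD 1 and close to that of sham 1 (81.0 on both), and the part of this in the result was not tested. The Ndfip1 probe thus exceeded background on 2 of the 3 AD arrays, and the difference rests in part on a signal at the detection limit. With normexp the difference was -0.19, and all AD arrays then lay below all sham arrays. The related adaptor Ndfip2, the sole other gene of the Nedd4 list with a named probe here, was not well above background on any array.

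Dlg4 was bright, and its groups overlapped. Its level was 4.35, 3.71 and 3.91 on AD 1, AD 2 and AD 3. On sham 1, sham 2 and sham 3 it was 3.74, 3.87 and 3.72. Apart from AD 1 all arrays lay within a narrow band, and AD 2 was the lowest of the 6. The AD mean was 3.99 ± 0.33 (SD, n = 3) and the sham mean 3.78 ± 0.08 (SD, n = 3). The log2 difference of 0.22 was smaller than its standard error of 0.24 from limma, and without AD 1 it was 0.04. Its sign depended on the scaling, with -0.11 after quantile normalization and -0.06 after scaling on other linear transcripts.

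The Dlg4 probe had the lowest median spot SD of the 4, 0.06. Its spot SD was as low as 0.03 on AD 2, where 2 of 10 spots had been left out as outliers. It was at most 0.13, on AD 1, where the spots of Ptk2b (0.11) and Ppp2r2b (0.12) were tighter. The mean processed signal was 1663, 1622 and 1384 in AD and 1081, 2153 and 1444 in sham. Before scaling, sham 2 was therefore the brightest array for Dlg4, and also for the 75th percentile of all probes (147.1 against 81.0 to 123.7 on the others).

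**Figure D2:**
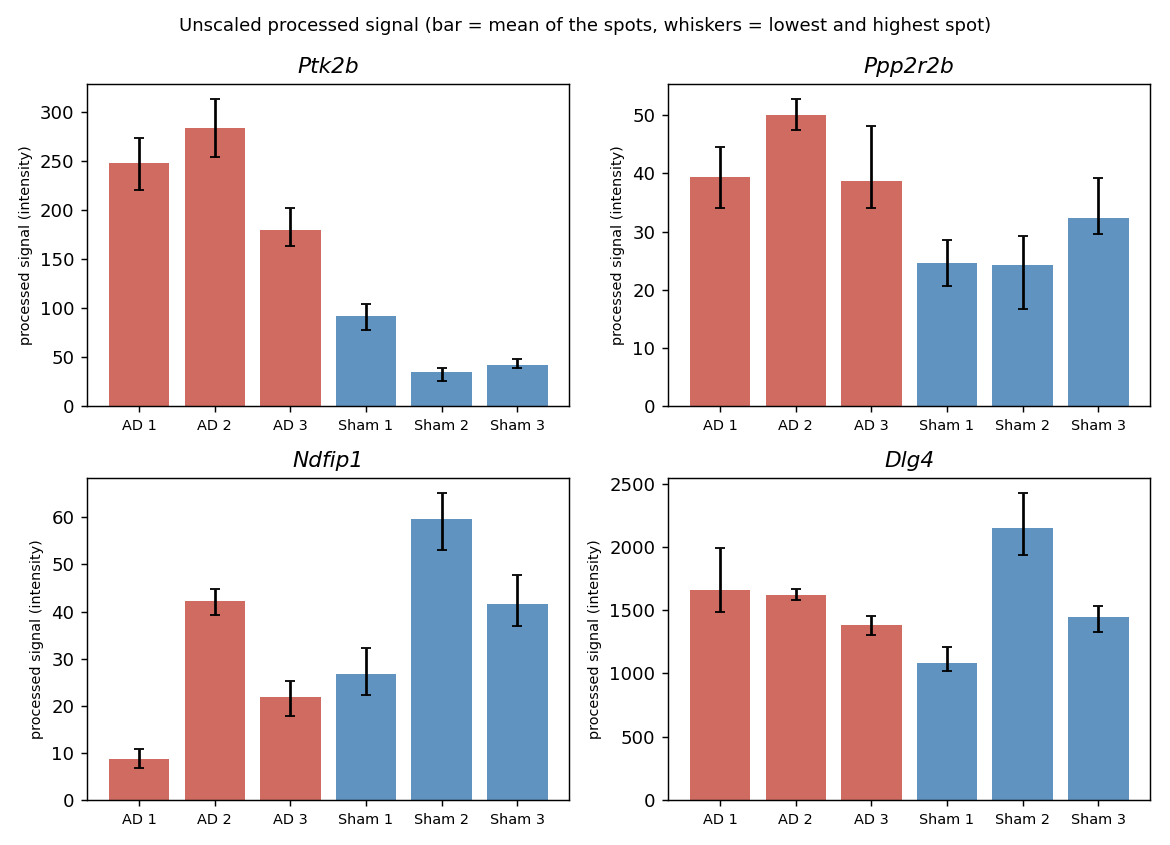
Unscaled processed signal (y axis, intensity from 0) of the 4 probes on the 6 arrays (x axis; AD red, sham blue), bars as the mean of the spots and whiskers from the lowest to the highest spot. Ptk2b is at 179.9 to 284.6 in AD and at 34.8 to 92.1 in sham, and the groups of Dlg4 overlap.

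The spread between spots and the spread between arrays followed different orders. The median spot SD was 0.11 for Ptk2b, 0.13 for Ppp2r2b, 0.13 for Ndfip1 and 0.06 for Dlg4. The SD between the AD arrays was 6.92 times the median spot SD for Ndfip1, 5.11 times for Dlg4 and 2.96 times for Ptk2b, but 1.04 times for Ppp2r2b. Between the sham arrays it was 10.5 times for Ptk2b, 3.81 times for Ppp2r2b, 1.23 times for Ndfip1 and 1.25 times for Dlg4. The spot SD is that of single spots, whereas an array level is the mean of 8 to 10 spots. For Ppp2r2b on the AD arrays the standard error of that mean was 0.018 to 0.048, against an SD of 0.14 between these arrays. A ratio near 1 therefore does not mean that arrays differ by spot noise only. The 10 spots of a probe were scattered over the array, over rows 19 to 179 for Ptk2b for example. The median correlation of spot deviations over 15 pairs of arrays was -0.14 to -0.07 among the 4 probes, and single pairs ranged from -0.84 to 0.89. Spots of 1 array share 1 labelled sample and are not replicates of a group.

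**Figure D3:**
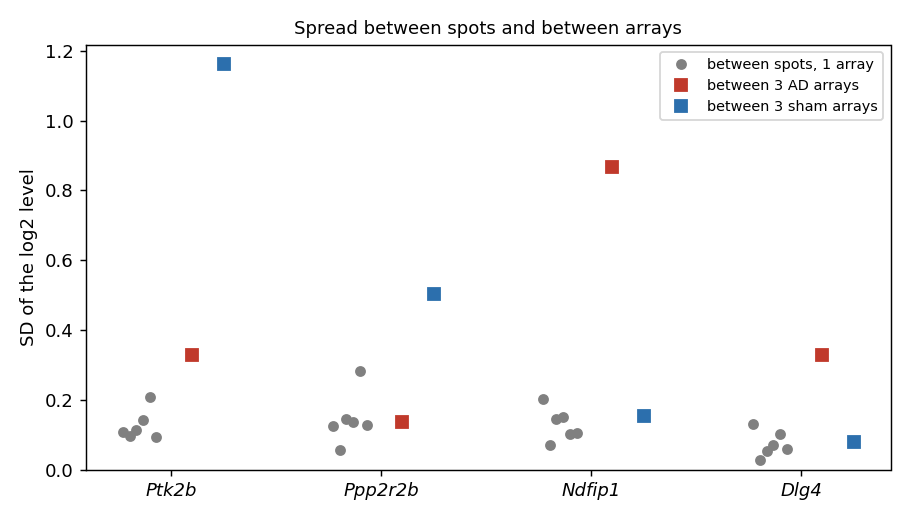
SD of the log2 level (y axis) for the 4 probes (x axis), with a grey circle for the spots of each array and squares for the 3 AD arrays (red) and the 3 sham arrays (blue). The largest values are the sham SD of Ptk2b, 1.16, and the AD SD of Ndfip1, 0.87, while the spot SDs are 0.28 or less.

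Across the 6 arrays, Ptk2b and Ppp2r2b varied alike. Ptk2b and Ppp2r2b had a Pearson correlation of 0.93, and of 0.77 once the group means were removed. Ndfip1 and Dlg4 ran opposite to each other, with a correlation of -0.93 both with and without the group means. AD 1 was lowest for Ndfip1, where the probe was not well above background, and highest for Dlg4. Without AD 1 the correlation of Ndfip1 and Dlg4 was -0.48 over 5 arrays. These correlations rest on 6 arrays that share 1 scaling and are a description only. Among 13 other named linear probes that passed the background limit on all 6 arrays, those most like Ptk2b were Sdha, a subunit of succinate dehydrogenase (0.97), and Ppp2r2b. Ppp2r2b was most like Ptk2b and then Sdha (0.82). Both correlations with Sdha include the difference between the groups, by which the members were chosen and which was 2.14 for Sdha. How far they hold once the group means are removed was not tested. Dlg4 was most like the neuronal microtubule-associated protein transcript Map2 (0.90) and B2m, the light chain of MHC class I (0.83). Like Dlg4, both were highest on AD 1 (Map2 -0.89, B2m -0.66), and how far these correlations rest on AD 1 was not tested. For Ndfip1, with 14 candidates, it was Pdcd10 (0.89) and then Actb (0.56). Pdcd10 was also lowest on AD 1, at -2.55, where the Ndfip1 probe was not well above background. How far its likeness to Ndfip1 rests on AD 1 was not tested.

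Differences between members on the same array are unaffected by any value subtracted from the whole array, though not by quantile normalization. Relative to Dlg4 on the same array, the AD minus sham difference was 2.14 (standard error 0.71) for Ptk2b, with no overlap between the groups. For Ppp2r2b it was 0.62 (standard error 0.36), and the groups were parted by 0.07 only. For Ndfip1 it was -1.07 (standard error 0.69), with overlap. Over 17 other linear probes that passed the background limit on every array, the mean level was -0.72 to -0.40 in AD and -0.90 to -0.78 in sham, an AD minus sham difference of 0.28. Of these probes 11 were on the higher side in AD and 6 on the lower side. With the arrays scaled on these 17, the difference was 2.08 for Ptk2b, 0.56 for Ppp2r2b and -1.13 for Ndfip1. Ptk2b and Ppp2r2b then still did not overlap between groups, and neither did Ndfip1. The scaling itself lowered the median difference of all probes to -0.28.

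**Figure D4:**
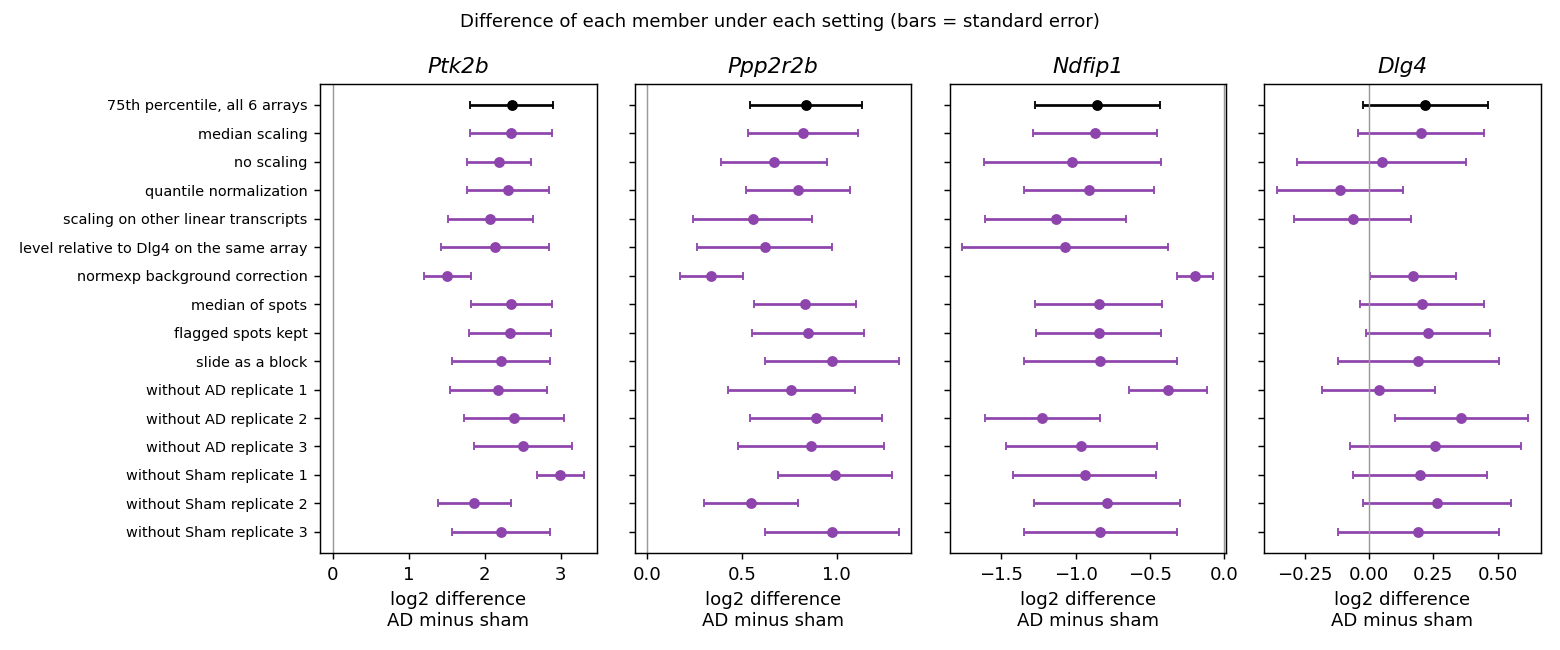
Log2 difference, AD minus sham (x axis), of the 4 transcripts under the settings on the y axis, with the standard error as bars and the reported value in black. Ptk2b stays between 1.51 and 3.00, Ppp2r2b between 0.34 and 0.99 and Ndfip1 between -1.22 and -0.19, while Dlg4 lies on both sides of 0. The replicate block, which leaves the difference as it is, is not drawn. The slide block and the setting without sham 3 are the same fit.

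The members were also set against all probes. limma was fitted over the 11602 probes, 27 of them linear, that exceeded background clearly on 3 or more arrays. At an adjusted p under 0.05 (Benjamini-Hochberg), 0 of the 4 members were called, where 2.25% of all probes were. At an unadjusted p under 0.05 it was 2 of 4 by limma, against 23.2%. With a difference of at least 2-fold required as well, it was 1 of 4, against 11.8%. The groups did not overlap for 2 of 4, against 30.3% of all probes, and both were higher in AD, which held for 15.4% of all probes. Ptk2b passed the adjusted p in 4 of 20 other settings: with normexp, with no scaling, without sham 1, and with linear probes alone (27 tested). Ppp2r2b, Ndfip1 and Dlg4 passed it in no setting. Since the members were chosen with this contrast known, nothing is read from these counts. By the methods' t-test 0 of the 4 passed an adjusted p under 0.05.

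The log2 difference of Ptk2b was larger than that of 98.0% of all probes and the highest among the 27 linear probes. Ppp2r2b was at rank 5 of these, Dlg4 at rank 16 and Ndfip1 at rank 26. The median difference was 0.53 over the 4 members, 0.26 over the other 23 linear probes and 0.003 over all probes. Of those 23, 16 were on the higher side in AD. Since the 4 members were chosen by their difference on these arrays, nothing is read from their ranks or their median.

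**Figure D5:**
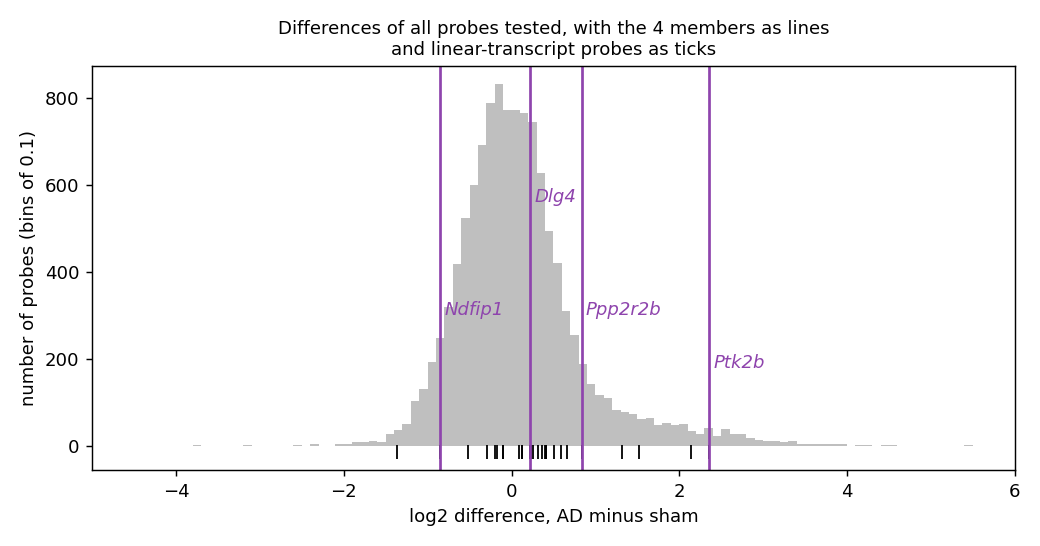
Number of probes (y axis) by log2 difference, AD minus sham (x axis, bins of 0.1), for all 11602 probes tested, with linear-transcript probes as black ticks and the 4 members as purple lines. Ptk2b, at 2.36, lies in the right tail, Ndfip1, at -0.85, exceeds 5.98% of all probes, and Dlg4 and Ppp2r2b exceed 64.4% and 88.4%.

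Few partners of these proteins could be read beside them. Of the list of 8 focal adhesion and Src family kinase genes only Ptk2b has a named probe, of 14 PP2A genes only Ppp2r2b, and of 18 postsynaptic density genes only Dlg4. Among 14 common reference transcripts 8 have a named probe, and 7 of them were tested. Of these, 2 passed an adjusted p under 0.05 by limma, Sdha and Rpl13a, both higher in AD, where 2.25% of all probes passed. Rpl13a did not exceed background clearly on any sham array and was tested only through the AD arrays, where it was high. Sdha passed in 8 of 20 other settings and Rpl13a in 5 of 19. Neither passed with the replicate block, with the slide as a block, or without AD 1, AD 2, AD 3, sham 2 or sham 3. Since sham 3 is the only array of its slide, the slide block and leaving out sham 3 are the same fit. No reference transcript passed in the other direction (0 of 7, also at an unadjusted p). Of 9 neuronal markers only Map2 has a named probe. Its level was -0.89, -2.06 and -1.51 in AD and -1.62, -1.98 and -2.09 in sham, a log2 difference of 0.41 (standard error 0.33 from limma) with overlapping groups. Like Dlg4, it was highest on AD 1. Of the markers of astrocytes, microglia, oligodendrocytes, endothelium, choroid plexus and blood, 0 have a named probe, so the cell makeup of the samples was not tested.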

How the data were processed

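The circRNA arrays of 3 AD and 3 sham samples were used. Per the file headers, the authors scanned Arraystar rat circRNA arrays in 1 colour, with spot values from Agilent Feature Extraction 11.0.1.1. The deposited files give intensities per spot: a background-subtracted processed signal, a median signal and a local background. The authors also deposited a table of log2 values, which holds circRNA probes only and so no member. How it was normalized is not stated in the sources at hand.

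With R 4.3.3 and limma 3.58.1, outlier spots were removed, the log2 processed signals of a probe's spots were averaged, and the 75th percentile of the non-control probes of an array was subtracted. A probe counted as well above background where over 50% of its unflagged spots did, and was tested where this held on at least 3 of 6 arrays. AD was compared with sham by limma without a block over all 11602 such probes, with Benjamini-Hochberg adjustment. The p-values of limma set the AD minus sham difference against the spread between these samples, which limma moderates over all probes tested. The number of arrays limits the precision. The fit was tested on simulated data with independent noise for each probe and array. These held no structure shared by the probes of an array or slide, so they cannot vouch for the calls made here.

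Accessions were matched without version to RefSeq names (GRCr8), which named 39 of 62 linear probes. A further 20 custom probes carry no accession. The named genes are the 4 members, genes of the pathway and marker lists with a named probe, and the 2 linear transcripts most correlated with each member. Members and lists were chosen with earlier results of these data known. The alternatives were other background corrections, scalings, spot summaries, filters, tests and blocks, and each array left out. Normexp used the median signal, the spot signal in the files before background subtraction. This setting therefore changed both the spot signal and its background correction.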

Additional observations from a re-analysis of the deposited data

How the results depend on the processing

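The difference of Ptk2b stayed positive in all 15 alternatives (1.51 to 3.00, and 1.86 to 3.00 with 1 array left out). That of Ppp2r2b did too (0.34 to 0.99, and 0.55 to 0.99), while that of Ndfip1 stayed negative (-1.22 to -0.19, and -1.22 to -0.38). The slide block and leaving out sham 3, the only array of its slide, are the same fit and are counted separately among the 15. Beyond 1 SD, normexp moved Ppp2r2b to 0.34 and Ndfip1 to -0.19. Dlg4 turned to -0.11 with quantile normalization and to -0.063 with scaling on other linear transcripts, and was 0.04 to 0.36 with 1 array left out. The cause was not tested. The level relative to Dlg4 was added after the data were seen and moved no member beyond 1 SD.

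The 261 probes past the adjusted p became 158 with quantile normalization, 17 with scaling on other linear transcripts, 496 with the deposited table, 80 with no filter, 2 by the methods' t-test and 4 with linear probes alone (27 tested). With the slide as a block, the same fit as without sham 3, there were 0 (1618 at an unadjusted p under 0.05). Leaving out 1 array gave 0 to 1951, with the maximum when sham 1 was dropped. It gave 3 when AD 1 was dropped, 16 when AD 2 was, and 0 when AD 3, sham 2 or sham 3 was. The 1367 at 2-fold and an unadjusted p under 0.05 became 568 with normexp, 778 with the deposited table, 5 with linear probes alone, and 1086 to 2042 with 1 array left out. With the replicate block 0 passed the adjusted p (3208 at an unadjusted p under 0.05). The deviations of arrays with the same number correlated by 0.17, 0.19 and 0.03 and did not all exceed 0.1, hence no pairing was assumed. Signal over background limits Ndfip1 on AD 1.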
